A study of Homo sapiens with 60 samples.

Results

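PC9 cells, a human lung adenocarcinoma line driven by a mutant epidermal growth factor receptor (EGFR), were examined 24 h after osimertinib was taken away from drug-tolerant persister cells. The comparison rested on 6 of the 60 RNA-seq libraries of the series, chosen by their labels alone: the 3 libraries of the short washout (500 nM osimertinib for 21 days, then 24 h without it) and the 3 libraries of the DTP state (500 nM osimertinib for 21 days, DTP standing for drug-tolerant persister). The other PC9 groups, with 3 libraries each, were DMSO (24 h of vehicle), acute treatment (500 nM osimertinib for 24 h) and long washout (21 days of 500 nM osimertinib, then 7 days without it). The same 5 arms were profiled in HCC827, H1975 and HCC2935, which are further EGFR-mutant lung cancer lines. PC9 is a cell line and its numbered libraries were not described as separate cultures, so p-values measure only the spread between these libraries, which may be technical. The DMSO cells had 24 h of vehicle and are not described as cultured for as long as the others, so drug history and time in culture cannot be told apart in comparisons with DMSO.

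Osimertinib binds irreversibly to mutant EGFR and switches off the signal that runs from the receptor through RAS, RAF and MEK to the kinase ERK, and through PI3K to AKT. Active ERK induces its own brakes (the phosphatase DUSP6, the SPRY and SPRED proteins) and transcription factors such as ETV4, ETV5 and FOSL1. AKT keeps the FOXO factors out of the nucleus, so FOXO targets rise when the pathway is silent. Persister cells are the minority that survives such a drug in a slow-cycling state which can be reversed when the drug is removed.

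Sequencing depth was similar in the groups compared, at 34.7 to 45.1 M estimated counts (M, counts divided by 1e6) in the DTP libraries and 36.2 to 41.2 M in the short washout libraries, of 19712 genes listed. Each library was nearer to the other libraries of its own group than to those of the other, by the root-mean-square log2 difference over 12856 genes: 0.190 to 0.212 within the groups and 0.290 to 0.355 between them. All pairs of replicates differed by more than counting noise, so none was a library deposited again. The mean profiles of DTP and short washout stood 0.295 apart, against 0.996 for DTP and DMSO and 0.840 for short washout and DMSO. The third long washout library stood apart from its own group: it was 0.454 from the other long washout libraries but 0.243 from the short washout libraries, and results that rest on it are marked where they are given. Epithelial genes were abundant in all 6 libraries (KRT8, a keratin of simple epithelia, 3965 ± 67.9 to 4332 ± 163 CPM; CPM are estimated counts per M of scaled library size, and ± with a level is the SD, n = 3, from here on), while CD3D, a T cell receptor component, was at 0 in all 6. The summed level of 8 fibroblast markers was 32.6 to 41.7 CPM in DTP and 30.4 to 30.8 CPM after washout, of which COL1A1 alone held 33.1 ± 4.89 to 28.9 ± 0.305 CPM. The summed level of 8 immune markers was 30.4 to 36.2 CPM in DTP and 34.4 to 44.1 CPM after washout. CD68 held the largest part, with means of 17.7 and 22.8 CPM, and CD3D was the only 1 of the 8 at 0 in every library. The summed level of 6 endothelial markers was 15.3 to 17.3 CPM in DTP and 14.5 to 19.3 CPM after washout.

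The promoters of 4 genes are shown because their products stand for the branches described. CDC6 stands for the start of DNA replication and PIK3IP1 for the FOXO targets. PIK3IP1 has 2 annotated promoters, and the printed promoter was picked because it holds the FOXO motif, so the motif there is no finding. BIRC3 stands for the genes that were above DMSO in DTP and rose further, and EGR1 for the immediate-early genes. Each runs from 250 bases before the annotated start to 30 bases after it (RefSeq, GRCh38.p14), 5′ to 3′, and capitals mark the motif named.
CDC6 (chr17:40287629-40287908, plus strand; E2F motif): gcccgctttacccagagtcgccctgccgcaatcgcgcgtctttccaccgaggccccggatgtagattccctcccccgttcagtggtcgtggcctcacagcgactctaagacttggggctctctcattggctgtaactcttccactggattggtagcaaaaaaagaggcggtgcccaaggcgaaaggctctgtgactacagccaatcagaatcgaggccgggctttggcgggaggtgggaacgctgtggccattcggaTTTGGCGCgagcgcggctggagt
PIK3IP1 (chr22:31292459-31292738, minus strand; FOXO motif): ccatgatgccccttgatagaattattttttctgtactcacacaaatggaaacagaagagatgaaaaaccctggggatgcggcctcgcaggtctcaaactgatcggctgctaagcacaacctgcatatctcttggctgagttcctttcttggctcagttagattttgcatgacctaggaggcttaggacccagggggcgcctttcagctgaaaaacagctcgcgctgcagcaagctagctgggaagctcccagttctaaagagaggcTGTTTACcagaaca
BIRC3 (chr11:102317234-102317513, plus strand; NF-kB motif): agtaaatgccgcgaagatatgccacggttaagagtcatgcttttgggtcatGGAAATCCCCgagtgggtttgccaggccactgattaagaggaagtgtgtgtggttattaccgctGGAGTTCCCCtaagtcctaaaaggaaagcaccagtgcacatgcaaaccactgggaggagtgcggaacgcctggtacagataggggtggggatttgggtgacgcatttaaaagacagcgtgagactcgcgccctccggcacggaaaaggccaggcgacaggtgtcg
EGR1 (chr5:138465229-138465508, plus strand; CArG boxes): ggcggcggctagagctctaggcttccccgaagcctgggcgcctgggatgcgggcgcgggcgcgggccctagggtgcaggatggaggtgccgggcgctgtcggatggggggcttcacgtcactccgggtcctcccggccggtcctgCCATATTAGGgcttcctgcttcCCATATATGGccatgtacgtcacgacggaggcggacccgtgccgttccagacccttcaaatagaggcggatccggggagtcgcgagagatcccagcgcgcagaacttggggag
The E2F search used TTTCCCGC, TTTCGCGC, TTTGCCGC and TTTGGCGC on both strands, and the FOXO search used TGTTTAC on both strands. The motifs were counted in the full RefSeq windows of 300 bases, of which the printed sequences are the first 280. In these windows 18 of the 40 promoters of the DNA replication and G1/S genes (31 genes matched) held an E2F motif, against 4 of the 35 promoters of the mitotic genes and 3.31% of all 35116 promoters. A FOXO motif lay in 5 of the 33 promoters of the FOXO factors and targets and in 3.42% of all promoters. The NF-kB consensus was found in 11.3% of all promoters and the CArG box, the site of serum response factor, in 1.29%. Over the 16557 promoters of genes tested between DTP and short washout, the shares were 4.64% for E2F and 2.68% for FOXO. They were 13.3% for NF-kB and 1.19% for the CArG box. The CArG box was in 3 of 25 promoters of the ERK-dependent transcription factors and in 0 of 18 promoters of the ERK feedback regulators. A match is a description of letters, not of binding.

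One day without osimertinib moved 3221 of 14526 genes tested (22.2%) past the threshold, 1759 upward (12.1%) and 1462 downward (10.1%; edgeR's quasi-likelihood test, Benjamini-Hochberg adjusted p under 0.05). Most changes were small: called genes had a median absolute log2 fold change of 0.41, and 249 of them changed at least 2-fold, 88 upward and 161 downward. In bulk RNA, a change in the number of cells in a state and a change in RNA per cell cannot be told apart. The count was 2023 (13.9%) with the replicate number as a block and 1785 without short washout replicate 2 or 2081 without DTP replicate 2. When the spread was estimated over all 15 PC9 libraries it fell to 880 (5.92%), and with the third long washout library left out of that estimate it was 2636 (17.4%).

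The 10 largest increases included secreted and membrane proteins. PTX3, a soluble pattern recognition protein, was at 1.49, 0.517 and 0.924 CPM in the DTP libraries and 5.02, 6.0 and 4.76 CPM after washout. Its groups did not overlap (log2 fold change 2.43 ± 0.33, adjusted p = 0.0022, errors of fold changes being SE); the gene lies on the opposite strand of VEPH1. MARCHF4, a membrane ubiquitin ligase, was at 6.14, 5.69 and 6.57 CPM in DTP and 26.4, 29.1 and 24.9 CPM after washout (log2 fold change 2.11 ± 0.11, adjusted p = 4.1e-05). All 3 washout libraries held more than 3 times the highest DTP level, and the DMSO libraries lay above both at 82.3 ± 1.01 CPM. TGM2, a transglutaminase that crosslinks proteins, was at 185, 166 and 173 CPM in DTP and 519, 527 and 475 CPM after washout (log2 fold change 1.53 ± 0.062, adjusted p = 2.1e-05), against 1954 ± 98.2 CPM in DMSO. TGM2 had the smallest SE among the 10 largest increases and its groups were far apart. KIAA1549L rose from 13.8 ± 2.1 to 55.1 ± 4.01 CPM, KISS1, which encodes the kisspeptin precursor, from 2.16 ± 0.381 to 7.49 ± 2.13 CPM, IL1R2, a decoy receptor for interleukin-1, from 0.849 ± 0.125 to 2.86 ± 0.623 CPM, and KRT6B, a keratin whose reads may be shared with its near-identical relatives, from 1.14 ± 0.0292 to 3.68 ± 1.4 CPM. ANKRD22, the lymphangiogenic factor VEGFC and LTB, a member of the tumour necrosis factor family, completed the 10, at log2 fold changes of 1.62 ± 0.23, 1.60 ± 0.25 and 1.56 ± 0.21.

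The largest decreases included several genes that were low in DMSO. PDZK1, a scaffold of membrane transporters, was at 23.8, 24.8 and 27.6 CPM in DTP and 9.41, 7.66 and 7.72 CPM after washout (log2 fold change -1.63 ± 0.11, adjusted p = 0.00013). Acute treatment gave a like level of 23.8 ± 6.02 CPM and DMSO a low one of 1.01 ± 0.219 CPM. METTL7A, a methyltransferase of lipid droplets, was at 12.6, 18 and 17.7 CPM in DTP and 4.32, 3.18 and 5.67 CPM after washout (log2 fold change -1.89 ± 0.22, adjusted p = 0.0013). BMP3, a growth factor of the bone morphogenetic protein family, fell from 12.2 ± 3.21 to 3.5 ± 1.15 CPM, and CSF3R, the receptor for granulocyte colony-stimulating factor, from 5.23 ± 1.08 to 1.64 ± 0.569 CPM. AGXT, COLQ, SYNDIG1L, TLL1 and LRP1B had log2 fold changes between -1.89 and -1.68. Among genes that averaged 1 CPM or more and did not overlap, the lowest fold change belonged to a feature listed as CHURC1.FNTB (-1.98 ± 0.38), a readthrough of neighbouring genes whose reads may be shared with both. The no-overlap condition alone was met by 40.9% of all genes tested.

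Some of the genes that report ERK activity rose. Of 15 feedback regulators tested, 5 rose and 1 fell (median log2 fold change 0.37, against -0.014 over all genes tested, of which 12.1% were called higher and 10.1% lower). DUSP6, the phosphatase that inactivates ERK (chr12:89347232-89353271, GRCh38), was at 1.63, 1.03 and 2.25 CPM in DTP and 3.57, 3.76 and 3.71 CPM after washout. The groups did not overlap (log2 fold change 1.15 ± 0.28, adjusted p = 0.019), yet the washout level remained far under the 46.5 ± 7.91 CPM of DMSO. SPRED2, an inhibitor of RAF activation, went from 17.8 ± 2.86 to 29.7 ± 0.903 CPM (0.73 ± 0.12), and DUSP4, a nuclear phosphatase, from 44.4 ± 10.8 to 70.9 ± 13.4 CPM (0.67 ± 0.17). DUSP7 and PHLDA1 completed the increases. SPRY4, an inhibitor of receptor signalling, was at 2.67, 1.58 and 2.25 CPM in DTP and 2.52, 5.59 and 3.94 CPM after washout, with overlapping groups (log2 fold change 0.89 ± 0.31, adjusted p = 0.074). SPRY1, of the same family, fell, from 21.2, 28.3 and 16.9 CPM to 8.42, 9.85 and 13.7 CPM (log2 fold change -1.06 ± 0.22, adjusted p = 0.0098). Its mean DMSO level, 22.7 ± 0.86 CPM, lay within the range of the DTP libraries, and acute treatment gave 13.6 ± 2.91 CPM. With the spread of all 15 PC9 libraries, 1 of the 15 regulators was called higher (3.87% of all genes) and 1 lower (2.05% of all genes). With that of 14 libraries 2 were higher and 1 lower (11.5% and 5.87% of all genes), so the higher count was near the share of all genes. Leaving out a library in turn gave 2 to 6 higher and 1 lower.

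Most transcription factors downstream of ERK did not pass the test. Of 22 tested, ETV4, FOSL1 and ETV5 rose and JUND fell slightly. These shares were near or under those of all genes (12.1% higher and 10.1% lower), so the counts do not set the list apart. The median log2 fold change of the list was -0.21, with 15 of the 22 below 0, against -0.014 over all genes tested. The values below are those of single genes. ETV4, an ETS factor (chr17:43527844-43579620), was at 13.7, 10.4 and 11.5 CPM in DTP and 28.9, 37 and 32.4 CPM after washout (log2 fold change 1.45 ± 0.13, adjusted p = 0.00042). Every washout library held more than 2 times the highest DTP value, and DMSO held 119.9 ± 3.53 CPM; the gene overlaps DHX8 on the opposite strand, whose reads the counting may not separate. FOSL1, an AP-1 subunit, was at 17.9, 8.68 and 17.6 CPM and 34.4, 49 and 28.9 CPM (log2 fold change 1.33 ± 0.27, adjusted p = 0.01), and ETV5 at 11, 5.43 and 13.3 CPM and 24.1, 21.2 and 15.5 CPM (log2 fold change 1.02 ± 0.29, adjusted p = 0.034). EGR1 and FOS, immediate-early genes which serum or growth factors induce within minutes, did not pass the test. EGR1 was at 34.2, 79.5 and 245 CPM in DTP and 136, 20.1 and 88.6 CPM after washout, with overlapping groups (log2 fold change -0.57 ± 0.73, adjusted p = 0.62). FOS was as scattered, at 67.5, 128 and 284 CPM and 126, 31.4 and 102 CPM (log2 fold change -0.90 ± 0.55, adjusted p = 0.28). EGR1 and FOS were lowest in the same washout library and highest in the same DTP library, and the direction of EGR1 turned to 0.51 without that DTP library (replicate 3).

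**Figure D1:**
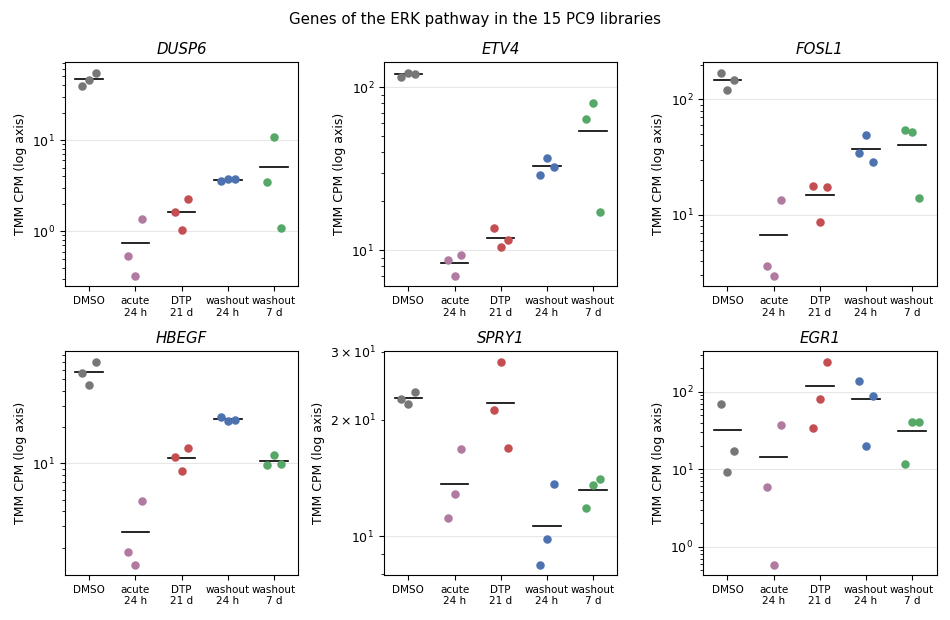
Normalised counts in CPM (log axis) of 6 genes of the ERK pathway in each of the 15 PC9 libraries, by arm, with lines at the means of 3 libraries. The 3 washout (24 h) points of DUSP6, ETV4, FOSL1 and HBEGF lie above their DTP points and below DMSO, SPRY1 lies below its DTP points, and EGR1 is scattered in both arms.

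The growth factors and receptors at the head of the pathway gave few calls. Of 9 ligands tested, HBEGF and TGFA rose and BTC and NRG2 fell, beside 12.1% of all genes called higher and 10.1% called lower. Of 11 receptors and inhibitors 1 rose and 1 fell, near those shares, so the counts do not set that list apart. HBEGF, heparin-binding EGF-like growth factor, was at 11.4, 8.58 and 13.5 CPM in DTP and 24.4, 22.6 and 22.8 CPM after washout (log2 fold change 1.05 ± 0.15, adjusted p = 0.0026). TGFA, transforming growth factor alpha, was at 131, 112 and 116 CPM and 195, 199.9 and 195 CPM (log2 fold change 0.71 ± 0.066, adjusted p = 0.00058), which put it above the 127 ± 9.26 CPM of DMSO. BTC, betacellulin, went from 27.6 ± 4.67 to 17 ± 3.47 CPM (-0.71 ± 0.16) and NRG2, a neuregulin, from 2.01 ± 0.0942 to 0.823 ± 0.129 CPM (-1.30 ± 0.26). EGFR itself was at 1588, 1473 and 1540.0 CPM in DTP and 1401, 1484 and 1418 CPM after washout (log2 fold change -0.11 ± 0.045, adjusted p = 0.12). Among 11 receptors and inhibitors, ERBB2 fell from 312 ± 10.0 to 260.1 ± 17.6 CPM (log2 fold change -0.28 ± 0.061, adjusted p = 0.014) and LRIG1, which promotes degradation of the receptors, rose from 3.97 ± 0.50 to 6.21 ± 0.695 CPM (log2 fold change 0.64 ± 0.16, adjusted p = 0.024).

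FOXO targets fell together. Of 20 FOXO factors and targets tested, 16 fell and none rose (median -0.49; 10.1% of all genes were called lower). PIK3IP1, an inhibitor of PI3K whose promoter is printed above, was at 50.3, 54.4 and 62.4 CPM in DTP and 30.1, 20.8 and 27.7 CPM after washout (log2 fold change -1.10 ± 0.14, adjusted p = 0.0017). The washout level lay between the 1.74 ± 0.639 CPM of DMSO and the 85.7 ± 17.8 CPM of acute treatment. CCNG2, an unconventional cyclin of resting cells, went from 80.9, 98.2 and 95.2 CPM to 46.5, 40.2 and 59.3 CPM (log2 fold change -0.92 ± 0.14, adjusted p = 0.0027), and BCL6, a transcriptional repressor, from 176, 238 and 209 CPM to 119, 102 and 122 CPM (log2 fold change -0.87 ± 0.11, adjusted p = 0.0019). SESN3, a sestrin, fell by 0.88 on the log2 scale and IRS2, an insulin receptor substrate, by 0.30. FOXO3 itself was at 142, 139 and 159 CPM and 138, 135 and 145 CPM (log2 fold change -0.087 ± 0.067, adjusted p = 0.39). The count was 13 of 20 with the spread of 14 PC9 libraries (5.87% of all genes lower) and 2 of 20 with that of all 15 (2.05%).

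Most death genes that were called fell, and the survival genes that were called rose. Of 8 BH3-only genes, whose products start apoptosis at the mitochondrion, BMF, HRK, BBC3 and BCL2L11 fell and BID rose. BMF was at 103, 99.4 and 108 CPM in DTP and 71.3, 54.4 and 62.6 CPM after washout (log2 fold change -0.74 ± 0.094, adjusted p = 0.0019), and BCL2L11, which encodes BIM, at 61.3, 57.9 and 66.6 CPM and 49.5, 45.5 and 47.8 CPM (log2 fold change -0.39 ± 0.073, adjusted p = 0.007). Both remained above DMSO, where BMF was at 9.76 ± 3.25 CPM and BCL2L11 at 24.4 ± 2.37 CPM. HRK went from 36 ± 4.09 to 22.5 ± 1.86 CPM (-0.69 ± 0.10), BBC3, which encodes PUMA, from 11.4 ± 1.05 to 7.59 ± 1.04 CPM (-0.60 ± 0.14) and BID from 45.6 ± 0.973 to 58.1 ± 4.79 CPM (0.34 ± 0.073). PMAIP1, which encodes NOXA, was at 9.5, 12 and 12.6 CPM and 12.3, 9.25 and 10.3 CPM (log2 fold change -0.11 ± 0.15, adjusted p = 0.62). Of 8 antiapoptotic genes, BIRC3, BIRC2 and BIRC5, the last of which also acts in mitosis, rose and none fell (12.1% of all genes were called higher and 10.1% lower). The other 5 tested were not called. BCL2L1 and BCL2, the first members of the list, were not among the increases. BIRC3, a ubiquitin ligase of the inhibitor of apoptosis family, was at 95.8, 90.1 and 77.8 CPM and 195, 218 and 207 CPM (log2 fold change 1.22 ± 0.081, adjusted p = 0.00011). No BH3-only and no antiapoptotic gene was called with the spread of all 15 libraries (3.87% of all genes higher and 2.05% lower). With that of 14 libraries 4 BH3-only genes were lower and 1 higher, and 2 antiapoptotic genes were higher (11.5% of all genes higher and 5.87% lower).

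DNA replication genes rose, and most mitotic genes did not pass the test. Of 36 genes of DNA replication and the G1/S transition, 30 rose and none fell, with a median log2 fold change of 0.47 (12.1% of all genes were called higher). CDC6, which loads the replicative helicase, was at 37.1, 39.5 and 36.8 CPM in DTP and 54.1, 67.2 and 68.9 CPM after washout (log2 fold change 0.73 ± 0.096, adjusted p = 0.002), against 127 ± 11 CPM in DMSO. MCM2, a subunit of that helicase, was at 109, 106 and 105 CPM and 142, 151 and 157 CPM (log2 fold change 0.48 ± 0.058, adjusted p = 0.0015). RRM2, a subunit of ribonucleotide reductase, was at 70.7, 71.9 and 77 CPM and 115, 115 and 119 CPM (log2 fold change 0.66 ± 0.059, adjusted p = 0.00047). The washout values of all 3 genes lay above every DTP value and below DMSO. CLSPN, a checkpoint adaptor at replication forks, had the largest change of the list (0.88 ± 0.11), followed by CDC6 and GINS2 (0.68 ± 0.08). Upstream of them, CCNE1 (cyclin E1) rose from 9.88 ± 0.595 to 16.4 ± 0.999 CPM (log2 fold change 0.72 ± 0.1, adjusted p = 0.0023), CCNE2 by 0.66 ± 0.12 and E2F1 by 0.32 ± 0.072, while CDKN2B, an inhibitor of CDK4 and CDK6, fell from 134 ± 6.56 to 113 ± 9.21 CPM (log2 fold change -0.26 ± 0.073, adjusted p = 0.034). CCND1 (cyclin D1) was at 519, 427 and 539 CPM and 638, 562 and 584 CPM (log2 fold change 0.25 ± 0.088, adjusted p = 0.07).

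Of 30 genes of mitosis and G2/M, 7 rose and none fell, with a median of 0.17 (12.1% of all genes were called higher). TOP2A, topoisomerase II alpha, was at 139, 147 and 139 CPM in DTP and 133, 141 and 161 CPM after washout (log2 fold change 0.024 ± 0.075, adjusted p = 0.85), MKI67, the proliferation antigen, at 150.0, 157 and 174 CPM and 174, 190.4 and 192 CPM (log2 fold change 0.20 ± 0.071, adjusted p = 0.076), and PLK1, a mitotic kinase, at 69.1, 63 and 64.8 CPM and 69.4, 76.6 and 80.8 CPM (log2 fold change 0.19 ± 0.072, adjusted p = 0.086). ANLN, a scaffold of the cleavage furrow, had the largest increase (0.40 ± 0.10), with CDK1 at 0.36 ± 0.084 and KIF23, a motor of the midbody, at 0.35 ± 0.075. With the spread of all 15 libraries 1 of 36 replication genes and no mitotic gene was called, not above the share of all genes in that fit (3.87% higher). With the spread of 14 libraries 21 and 0 were called (11.5% of all genes higher).

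Ribosome biogenesis genes rose in 20 of 30 cases and fell in none (median 0.34; 12.1% of all genes were called higher). LYAR, a nucleolar protein, went from 8.98, 8.66 and 9.49 CPM in DTP to 12, 15.3 and 13.6 CPM after washout (log2 fold change 0.58 ± 0.12, adjusted p = 0.0095), NOLC1, a nucleolar chaperone, from 89.5 ± 3.73 to 127 ± 8.61 CPM (0.50 ± 0.066) and POLR1B, a subunit of RNA polymerase I, from 28.4 ± 1.38 to 38.5 ± 2.22 CPM (0.43 ± 0.077). All stayed under their DMSO levels, of which that of LYAR was 48.6 ± 4.74 CPM. The count was 22 of 30 with the spread of 14 libraries (11.5% of all genes higher), and 2 of 30 with that of 15, near the share of all genes in that fit (3.87%).

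**Figure D2:**
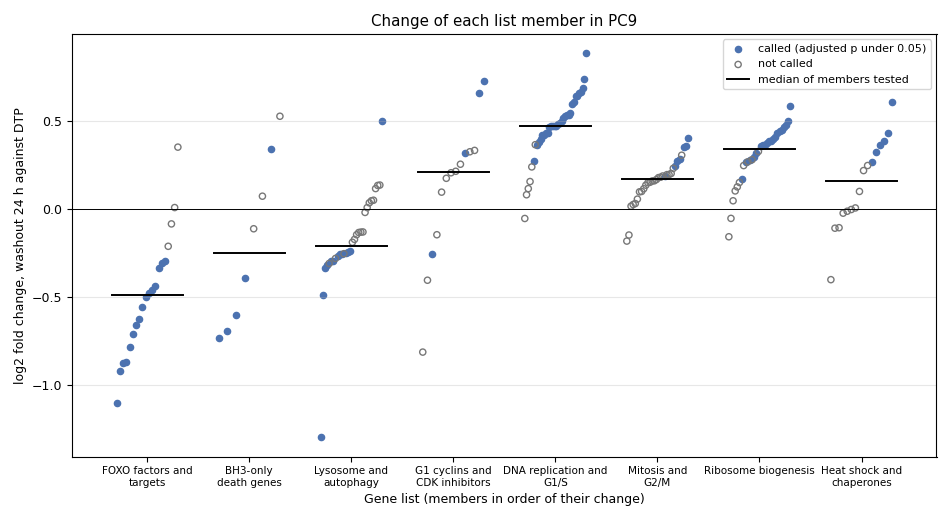
Log2 fold change of short washout against DTP for each tested member of 8 gene lists in PC9, ordered within a list, with filled points for called genes and a line at the median. FOXO members lie mostly below 0 (median -0.49), replication members mostly above it (median 0.47), and mitotic members cluster near their median of 0.17.

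Metabolic and stress lists held calls in both directions, beside 12.1% of all genes called higher and 10.1% called lower. Among 32 genes of cholesterol and fatty acid synthesis 12 rose, among them EBP and LSS (log2 fold changes 0.53 ± 0.11 and 0.50 ± 0.073), enzymes of the late sterol pathway, and SREBF1, the regulator of fatty acid synthesis, fell (-0.28 ± 0.065). In the glycolysis and hypoxia list 13 of 23 rose and 3 fell. The enzymes PFKP (0.75 ± 0.096), ENO2 (0.52 ± 0.15) and PGAM1 (0.45 ± 0.069) led the increases, while NDRG1, a stress gene induced by hypoxia, went down from 124, 162 and 144 CPM to 72.8, 66.8 and 101 CPM (log2 fold change -0.85 ± 0.15, adjusted p = 0.0058), and PFKFB3 (-0.52 ± 0.096) and ADM (-0.29 ± 0.066) fell with it. Of 29 ATF4 targets and tRNA synthetases 10 rose and none fell, among them the amino acid transporters SLC7A5 (0.61 ± 0.17) and SLC7A1 (0.41 ± 0.082). The median of that list was only 0.070, with 11 of the 29 below 0. Of 16 heat shock and chaperone genes 6 rose and none fell (median 0.16, with 6 of the 16 below 0). HSPA8, the constitutive HSP70, was at 857, 819 and 807 CPM in DTP and 1288, 1269 and 1254 CPM after washout (log2 fold change 0.61 ± 0.041, adjusted p = 0.00012); the annotation holds 17 pseudogenes of it, with which reads may be shared. These counts moved with the libraries that gave the spread. With that of all 15 libraries 0 sterol and fatty acid, 4 glycolysis, 2 ATF4 and 1 heat shock genes were called higher (3.87% of all genes), and with that of 14 libraries 3, 11, 11 and 5 were (11.5%). Of 30 lysosome and autophagy genes, 12 were lower and 1 higher (GLA, alpha-galactosidase, 0.50 ± 0.087). ATG9B, a transmembrane autophagy protein whose gene overlaps NOS3 on the opposite strand, was at 90.3, 97.1 and 90.5 CPM in DTP and 35.5, 38.2 and 40.2 CPM after washout (log2 fold change -1.30 ± 0.069, adjusted p = 5.2e-05). GAA, the lysosomal glucosidase, fell from 230.0 ± 2.7 to 165 ± 3.25 CPM (log2 fold change -0.49 ± 0.048, adjusted p = 0.0007) and CTSD, cathepsin D, from 769 ± 27.2 to 643 ± 52.7 CPM (log2 fold change -0.27 ± 0.063, adjusted p = 0.017). The count of lower lysosome and autophagy genes was 7 with the replicate block, 8 with the spread of 14 libraries (5.87% of all genes lower) and 0 with that of 15 (2.05%).

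**Figure D3:**
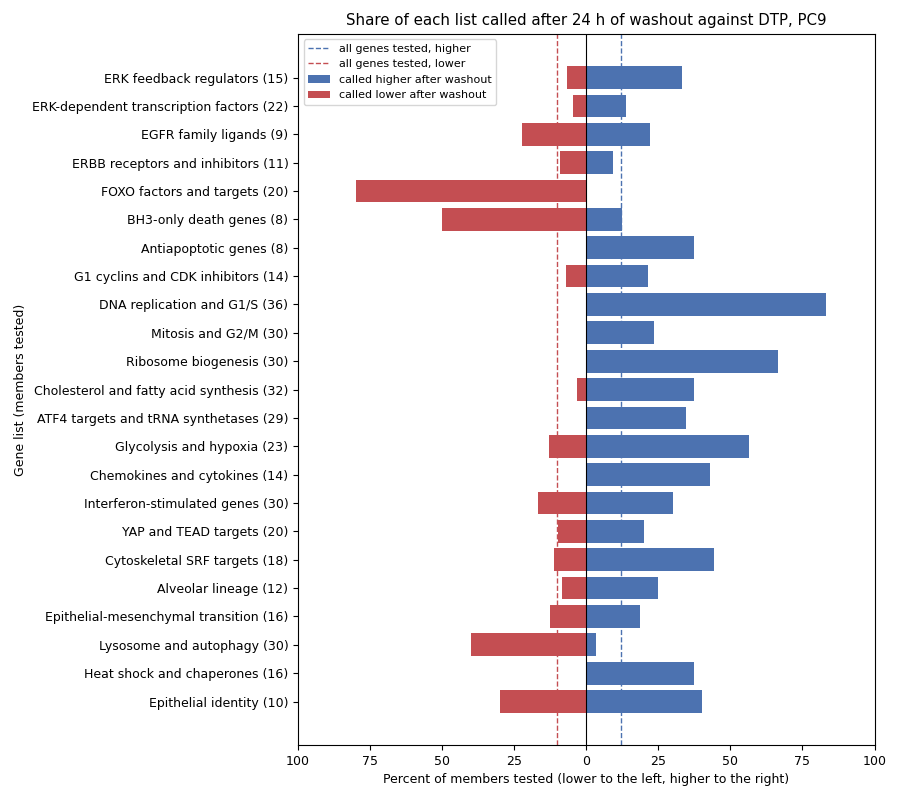
Percent of tested members of each gene list called higher (right) or lower (left) after 24 h of washout in PC9, with dashed lines at the shares of all genes tested, 12.1% higher and 10.1% lower. DNA replication (30 of 36) and ribosome biogenesis (20 of 30) reach furthest to the right, and the FOXO list (16 of 20) and the BH3-only genes (4 of 8) furthest to the left.

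LTB, IL32 and TRAF1 had DTP levels above those of DMSO and rose from there when the drug was removed. LTB was at 4.02, 3.81 and 2.39 CPM in DTP and 8.9, 9.73 and 11.7 CPM after washout, against 0.0829 ± 0.0607 CPM in DMSO. IL32, a proinflammatory cytokine, was at 16.6, 12.4 and 15.9 CPM and 47.4, 40.0 and 38.9 CPM (log2 fold change 1.48 ± 0.12, adjusted p = 0.00039), against 0.951 ± 0.282 CPM in DMSO. TRAF1, an adaptor of tumour necrosis factor receptors, was at 10.4, 8.44 and 8.04 CPM and 22.5, 24.7 and 23.2 CPM (log2 fold change 1.38 ± 0.11, adjusted p = 0.00034), against 2.12 ± 0.622 CPM in DMSO. In all 3 genes each washout library exceeded every DTP and every DMSO library. SGPP2, a sphingosine phosphatase, rose from 17.1 ± 3.95 to 43.1 ± 5.33 CPM (1.32 ± 0.16) and IL2RG, the common cytokine receptor chain, from 1.1 ± 0.298 to 2.66 ± 0.366 CPM (1.27 ± 0.28). BIRC3, described among the survival genes, was at 33.8 ± 7.45 CPM in DMSO, below both states. TNFAIP3, which restrains NF-kB signalling, rose from 55.8 ± 10.9 to 120.0 ± 12.7 CPM (log2 fold change 1.09 ± 0.13, adjusted p = 0.0014), against 109 ± 28.6 CPM in DMSO. CD274, which encodes PD-L1, rose from 2.6 ± 0.467 to 6.2 ± 0.422 CPM (log2 fold change 1.23 ± 0.18, adjusted p = 0.0028), with 15.3 ± 5.2 CPM in DMSO. IL32, TRAF1, IL2RG, TNFAIP3 and CD274 belong to no list and were chosen after their values were seen.

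Among 14 chemokines and cytokines with enough counts, 6 rose and none fell, at low levels (12.1% of all genes were called higher). TNF was at 1.02, 1.13 and 1.2 CPM in DTP and 2.39, 1.71 and 2.38 CPM after washout (log2 fold change 0.94 ± 0.26, adjusted p = 0.031), CXCL10 at 1.57, 0.776 and 0.819 CPM and 2.2, 2.14 and 2.29 CPM (log2 fold change 1.07 ± 0.32, adjusted p = 0.041), and CXCL11 at 0.496, 0.517 and 0.231 CPM and 0.805, 1.08 and 1.17 CPM (log2 fold change 1.29 ± 0.40, adjusted p = 0.044). IL6 was at 8.76, 8.7 and 13.9 CPM and 23.2, 12.3 and 16.9 CPM (log2 fold change 0.72 ± 0.25, adjusted p = 0.069), with overlap. None of the 6 calls held with the replicate block, and leaving out a library in turn left 0 to 3 of them. No member of the list was called with the spread of 15 libraries, and 2 were higher with that of 14 (11.5% of all genes). Of 30 interferon-stimulated genes 9 rose and 5 fell, beside 12.1% and 10.1% of all genes. With the spread of 15 libraries 1 was higher and 0 lower (3.87% and 2.05% of all genes), and with that of 14 libraries 6 and 1 were (11.5% and 5.87%). OAS3, a sensor of double-stranded RNA, was at 45.7, 40.6 and 43.6 CPM and 94.6, 88.2 and 110.0 CPM (log2 fold change 1.16 ± 0.089, adjusted p = 0.00024), and MX1, an antiviral GTPase, at 32.5, 26.2 and 29.9 CPM and 49.6, 41.7 and 54 CPM (log2 fold change 0.70 ± 0.11, adjusted p = 0.0038). IFITM3, which blocks viral entry, fell from 149, 148 and 152 CPM to 115, 103 and 115 CPM (log2 fold change -0.44 ± 0.061, adjusted p = 0.0023), and IFITM2 (-1.06 ± 0.23) and BST2 (-0.57 ± 0.14) with it. IFITM genes are close copies of each other, so reads may be shared. IFIT1 was at 24.8, 19.5 and 22 CPM and 26.4, 26.2 and 31.3 CPM (log2 fold change 0.33 ± 0.11, adjusted p = 0.063).

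**Figure D4:**
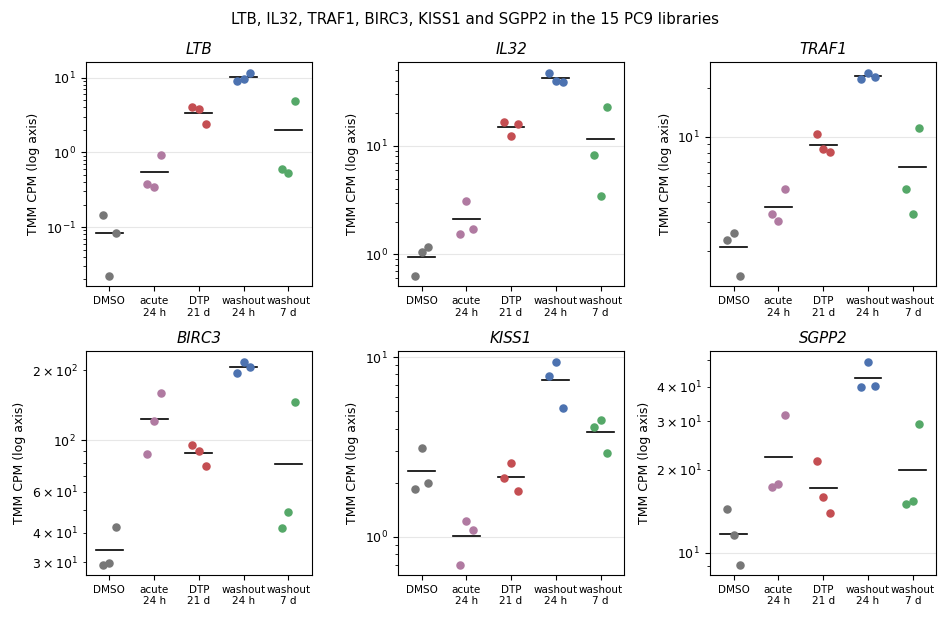
Normalised counts in CPM (log axis) of LTB, IL32, TRAF1, BIRC3, KISS1 and SGPP2 in the 15 PC9 libraries by arm, with lines at the means of 3 libraries. The 3 washout (24 h) points of each gene are above all DTP and all DMSO points, and for LTB, IL32, TRAF1 and BIRC3 the third long washout library lies well above the other long washout libraries.

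Cytoskeletal and identity genes gave mixed counts, several of them near the shares of all genes called higher (12.1%) and lower (10.1%). Of 18 cytoskeletal SRF targets 8 rose and 2 fell, with ACTB, beta-actin, at 283, 262 and 272 CPM in DTP and 373, 353 and 384 CPM after washout (log2 fold change 0.43 ± 0.053, adjusted p = 0.0016). Of 20 YAP and TEAD targets 4 rose, among them TGM2 and ANKRD1, a cardiac ankyrin repeat protein that went from 37.7 ± 1.96 to 62.5 ± 5.62 CPM (0.72 ± 0.082), and PTPN14 and CRIM1 fell. In the epithelial-mesenchymal list 3 of 16 rose and 2 fell. The counts of the YAP and TEAD targets and of the epithelial-mesenchymal list do not set either list apart from all genes. The mesenchymal genes CDH2, N-cadherin (0.275, 0.282 and 0.315 to 1.05, 1.25 and 0.863 CPM; log2 fold change 1.83 ± 0.34, adjusted p = 0.0069), and ZEB1, a repressor of epithelial genes (0.22, 0.40 and 0.336 to 0.939, 1.37 and 0.537 CPM; log2 fold change 1.54 ± 0.45, adjusted p = 0.037), rose to levels near 1 CPM, while CDH1, E-cadherin, was at 658 ± 40.8 to 752 ± 19.2 CPM (0.18 ± 0.053). FN1, fibronectin, was at 1986, 1486 and 2677 CPM and 3222, 2616 and 1795 CPM with overlap (log2 fold change 0.30 ± 0.23, adjusted p = 0.39). Of 10 epithelial identity genes 4 rose and 3 fell. MUC1, a transmembrane mucin, was at 80.0, 87.5 and 72.4 CPM in DTP and 30.3, 32.4 and 37.3 CPM after washout (log2 fold change -1.27 ± 0.097, adjusted p = 0.00023), against 3.09 ± 1.23 CPM in DMSO. Of 12 alveolar lineage genes 3 rose and 1 fell, ETV5, LAMP3 and ABCA3 against AGER. Among the markers of other cell types, none of 4 fibroblast and none of 4 endothelial genes tested was called, and of 3 immune genes ITGAM rose (0.37 ± 0.11) and CSF1R fell (-0.99 ± 0.28).

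Against DMSO, the cells remained far from their untreated state one day after the drug. The short washout libraries differed from DMSO in 9226 of 14198 genes tested (65%), 4518 higher and 4708 lower, with 2102 at least 2-fold higher and 957 at least 2-fold lower. Scaling by library size alone moved the median log2 fold change over all genes from 0.014 to 0.12, and every change against DMSO is relative to that median. The 34 replication genes that were called of 36 were all lower than in DMSO (33.2% of all genes were called lower), as were 30 of 30 mitotic genes (median -1.33) and 29 of 30 ribosome biogenesis genes (median -1.12). Interferon-stimulated genes were called higher in 29 of 30 cases (median 3.38; 31.8% of all genes were called higher), lysosome and autophagy genes in 25 of 30 and FOXO factors and targets in 14 of 20. Of 15 ERK feedback regulators 12 were lower and 2 higher. The ends of the range were genes near 0 in DMSO or after washout. UBD, a ubiquitin-like protein induced by inflammatory cytokines, and MYL7, an atrial myosin light chain, had no counts in any DMSO library. After washout they were at 8.66, 5.71 and 7.02 CPM and 10.9, 7.16 and 9.45 CPM. Their means were 87.7-fold and 112.6-fold above a floor of 0.0813 CPM. That floor is 3 counts in the shallowest DMSO library without the scaling used for the other levels, so these folds are approximate. NPY4R2, a receptor gene with a near-identical copy, was at 16.5, 21.3 and 21.4 CPM after washout and 0.0191 ± 0.0331 CPM in DMSO. ACOX2, a peroxisomal oxidase (6.48 ± 0.37 CPM in DMSO), PADI3, an arginine deiminase (6.87 ± 0.983 CPM), and NTSR1, the neurotensin receptor (26.8 ± 4.58 CPM), were the lowest against DMSO, at 0, 0.0482 and 0.14 CPM, 0.0536, 0.145 and 0.070 CPM and 0.644, 0.169 and 0.42 CPM after washout. These comparisons share the short washout libraries with the comparison against DTP.

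From 24 h to 7 days without drug the result rested on a single library. With all 3 long washout libraries, 1 of 14278 genes (0.007%) was called, while 2818 had an unadjusted p under 0.05 and DESeq2 called 810. That gene was GABBR2, a subunit of the GABA-B receptor, at 159.7, 152 and 158 CPM after 24 h and 78.5, 75 and 83.7 CPM after 7 days (log2 fold change -0.99 ± 0.083, adjusted p = 0.045). Without the third long washout library 4494 of 14559 genes were called (30.9%), 2255 higher and 2239 lower after 7 days. That library was singled out by its nearness to the short washout libraries in these same data (0.243), so leaving it out widens the difference. In the fit without it all 30 mitotic genes were higher after 7 days (median 1.07, beside 15.5% of all genes), as were 32 of 36 replication genes (median 0.64) and 25 of 30 ribosome biogenesis genes (median 0.51). The interferon-stimulated genes were lower in 26 of 30 cases (median -1.89; 15.4% of all genes) and the chemokines and cytokines in 8 of 14 (median -1.60). With all 3 long washout libraries no member of these 5 lists was called, and the medians were 0.92 for the mitotic, 0.44 for the replication, 0.35 for the ribosome biogenesis and -0.91 for the interferon-stimulated genes and -1.49 for the chemokines and cytokines. Single genes show how the third library differs. TOP2A was at 327, 369 and 246 CPM in the 3 long washout libraries in order, OAS3 at 37, 29.8 and 79.8 CPM, IL32 at 8.19, 3.46 and 23 CPM and ETV4 at 63.5, 80.5 and 17.2 CPM. The last value of each lies closer to the 24 h libraries than the other long washout values do. Those of IL32 and ETV4 lay below every 24 h library and nearer to the DTP libraries.

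The other lines tested whether the response was particular to PC9, by the difference between PC9 and each line in the change from DTP to short washout. Depth was lower in HCC827 (17.7 to 25.1 M) and HCC2935 (20.3 to 24.7 M) than in PC9, and each of the 6 HCC827 libraries and H1975 DTP replicate 2 and short washout replicate 3 were nearer to the other arm than to the rest of their own. Few genes differed: 2 of 15347 between PC9 and HCC827 (0.013%), 48 of 15599 between PC9 and H1975 (0.308%) and 42 of 15344 between PC9 and HCC2935 (0.274%), while 1693, 1877 and 2237 had an unadjusted p under 0.05. Leaving out a library in turn gave 0 to 8, 0 to 160 and 8 to 126 genes, with 160 without H1975 DTP replicate 2 and 29 without H1975 short washout replicate 3. MARCHF4 rose more in PC9 than in HCC827, where its log2 fold change was 0.13 (difference 1.98 ± 0.22, adjusted p = 0.011), and ANPEP, aminopeptidase N, fell in PC9 from 155 ± 13.2 to 63.6 ± 2.05 CPM against 0.28 in HCC827 (difference -1.58 ± 0.18, adjusted p = 0.011). Against H1975, the PC9 change was higher for GFPT2, a hexosamine pathway enzyme (difference 1.47 ± 0.17, adjusted p = 0.011), SGPP2 (difference 1.56 ± 0.28, adjusted p = 0.036) and GSDMC (difference 2.99 ± 0.51, adjusted p = 0.03), and lower for HOXB3, ADGRL2 and SEMA3E (differences -3.11, -2.66 and -1.74). For GSDMC, HOXB3 and ADGRL2 the movement was in H1975, with log2 fold changes of -3.10, 2.69 and 2.72 there. HBEGF, the EGFR ligand, also differed from H1975, where its log2 fold change was -0.37 (difference 1.41 ± 0.24, adjusted p = 0.03). Against HCC2935, the PC9 change was higher for TGM2 (difference 1.16 ± 0.11, adjusted p = 0.001) and for SCNN1B and SCNN1G, subunits of the epithelial sodium channel (differences 1.80 and 2.09), and lower for MUC1 (difference -1.17 ± 0.14, adjusted p = 0.0049), EXO1, a DNA exonuclease (difference -1.46 ± 0.22, adjusted p = 0.019), and STC1, a secreted glycoprotein (difference -1.67 ± 0.29, adjusted p = 0.036).

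**Figure D5:**
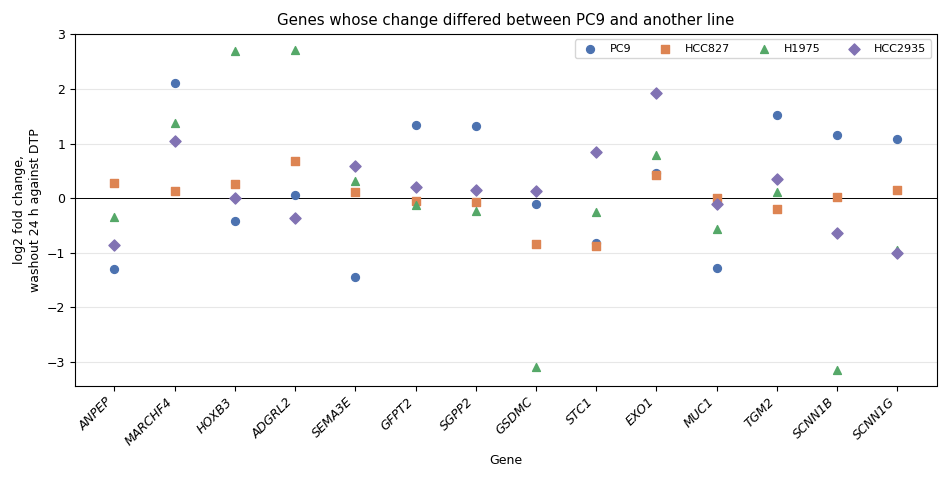
Log2 fold change of short washout against DTP in each of the 4 lines for the 14 genes named in the tests of a difference between PC9 and another line, with a point per line and no error shown. PC9 is highest for MARCHF4, GFPT2, SGPP2, TGM2, SCNN1B and SCNN1G and lowest for ANPEP, SEMA3E and MUC1, while the extreme points of HOXB3, ADGRL2 and GSDMC are those of H1975.

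By list, few members were called different between lines. The median log2 fold change of the 36 replication genes was 0.47 in PC9, 0.18 in HCC827, 0.69 in H1975 and 1.15 in HCC2935, with MCM7 the 1 member called different, from HCC2935. For the mitotic genes the medians were 0.17, 0.25, 0.77 and 0.52 in the same order, with 0 of 30 called different from any line. The FOXO list had medians of -0.49, -0.11, -0.28 and -0.40, and the interferon-stimulated genes 0.31, -0.14, -0.10 and -0.19, with 0 members called. The ERK feedback regulators had 0.37, -0.16, 0.09 and 0.08, also with 0 of 15 called. For the ERK-dependent transcription factors the medians were -0.21, -0.18, -0.20 and -0.16, with 0 of 22 called. ETV4 was at 1.45 in PC9, -0.58 in HCC827, 1.05 in H1975 and 0.93 in HCC2935 (adjusted p of the differences 0.10, 0.63 and 0.46). Over all genes tested the medians in the 4 lines lay between -0.016 and 0.0015.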

How the data were processed

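RNA was sequenced as Illumina TruSeq mRNA libraries with paired-end reads of 150 bp. The authors deposited estimated counts per gene and a log2 TPM table (pseudocount 0.01), and the submitters' processing notes name HISAT2 2.1.0, Salmon 0.8.2 and hg38. The gene annotation is not given in the sources used here. The members were given by the labels, and the 26 gene lists and tests were chosen with earlier results of these data known. Estimated counts were rounded, filtered with filterByExpr, scaled by TMM and tested with edgeR 4.0.16 (quasi-likelihood F-test; R 4.3.3) in the libraries compared, with Benjamini-Hochberg adjustment over all genes and a threshold of 0.05. The SE of a fold change is the unshrunken estimate divided by the square root of F. Levels are TMM-scaled CPM over the 15 PC9 libraries. Alternatives were DESeq2 1.42.0, limma 3.58.1 on the deposited log2 TPM, other scalings and filters, a replicate block, the spread of all 15 PC9 libraries and leaving out each library; a fit of 14 PC9 libraries was added after seeing the data. Same-numbered DTP and short washout libraries did not deviate together (correlations -0.15, -0.081 and -0.17), so the number was not treated as a pairing. Named genes were the 10 highest and 10 lowest called fold changes of genes that averaged 1 CPM or more without overlap, the 4 lead members and up to 3 called members per direction of each list, and up to 3 per direction of each other comparison at the same level; not all are printed. Neither GENCODE release 29, used for positions, nor the RefSeq promoters are known to match the authors' annotation, and no source used here states strand-specific counting, so reads of overlapping genes on opposite strands may not be separated. The fitting was tested on simulated data. Errors cover the spread between libraries and not the uncertainty of the estimated counts. A few list members are not analysed here. Some results are not reported here.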

Additional observations from a re-analysis of the deposited data

Results flagged for a closer look

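The change from DTP to short washout differed between PC9 and another line, by a test of the difference itself, for 2 genes against HCC827, 48 against H1975 and 42 against HCC2935. The differences (PC9 minus the other line, log2) were 1.98 for MARCHF4 and -1.58 for ANPEP against HCC827. They were 2.99 for GSDMC, 1.56 for SGPP2, 1.47 for GFPT2, -1.74 for SEMA3E, -2.66 for ADGRL2 and -3.11 for HOXB3 against H1975. Against HCC2935 they were 2.09 for SCNN1G, 1.80 for SCNN1B, 1.16 for TGM2, -1.17 for MUC1, -1.46 for EXO1 and -1.67 for STC1. Groups of 3 libraries were too small for a test of single libraries.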

How the results depend on the processing

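The comparison of short washout with DTP called 3221 genes, and 2023 with the replicate block (1085 higher, 938 lower), 880 with the spread of all 15 PC9 libraries (575 higher, 305 lower), 1241 at an adjusted p under 0.01 (709 higher, 532 lower) and 1785 to 2649 with a library left out (1011 to 1485 higher, 774 to 1164 lower). With 14 PC9 libraries, 888 genes were lower. The third long washout library is part of the spread of 15 libraries, and without it 2636 genes were called; the cause of the other shifts was not tested. The share of calls that were higher was 54.6%, and 65.3% with 15 libraries or 66.3% with 14. With library size alone it was 49.4% (1563 higher, 1604 lower), so the larger side depended on the scaling. The count against DMSO stayed within 8404 to 8890 with a library left out, and the block moved no call count there by over 1.5 times. Long against short washout called 1 gene, 810 with DESeq2, 1239 with the spread of 15 libraries, 5093 with that of 14, 0 with library size alone, 0 with the replicate block and 0 to 4494 with a library left out. The differences between lines were called for 2, 48 and 42 genes against HCC827, H1975 and HCC2935, for 241, 459 and 621 with DESeq2, for 76, 260 and 1 with the replicate block, and for 0 to 8, 0 to 160 and 8 to 126 with a library left out. Of 130 named genes called against DTP, 36 were called under every alternative at 0.05 and none changed direction. EGR1, which was not called, ran from -1.16 to 0.51 with a library left out, and TOP2A from -0.055 to 0.083. Between DTP and short washout, no library correlated best with the library of its own number. Between short and long washout numbers 2 and 3 did (r = 0.20 and 0.13), and between DMSO and short washout number 1 did (r = 0.073). No source used here says that the numbers mark a shared culture or day.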

Other observations

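The following genes are outside the lists and were chosen after their values were seen. ADAMTS12, a secreted metalloprotease, rose from 103 ± 11.8 to 248 ± 21.9 CPM (log2 fold change 1.25 ± 0.094, adjusted p = 0.00022, edgeR), and ITGA2, the alpha chain of a collagen-binding integrin, from 112 ± 25 to 240.5 ± 25 CPM (log2 fold change 1.09 ± 0.15, adjusted p = 0.0021). ABCA1, the cholesterol efflux transporter, fell from 60.3 ± 2.66 to 21.4 ± 5.63 CPM (log2 fold change -1.50 ± 0.16, adjusted p = 0.00084), to a level below the 52.7 ± 8.77 CPM of DMSO (log2 fold change -1.28 ± 0.18, adjusted p = 0.00014). ATP6V1B1, a subunit of the vacuolar proton pump, fell from 64.1 ± 11.4 to 22.7 ± 6.37 CPM (log2 fold change -1.51 ± 0.19, adjusted p = 0.0018), and remained above the 0.858 ± 0.119 CPM of DMSO (log2 fold change 4.72 ± 0.24, adjusted p = 2.6e-07). LRRC32, a surface receptor that holds latent TGF-beta, fell from 8.94 ± 2.34 to 3.29 ± 1.58 CPM (log2 fold change -1.46 ± 0.32, adjusted p = 0.013). In each of these genes the DTP and washout libraries did not overlap, as in 40.9% of all genes tested.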
